A study of Mus musculus with 24 samples.

Results

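The question addressed is whether loss of Vhl changed gene expression differently in immature B cells than in the combined pro-B and pre-B cells that precede them. For each gene the log2 fold change of flox/flox over flox/WT mice in the proBpreB sort was subtracted from the same fold change in the immature sort. The result is called the log2 difference below. A positive value means that the change was more positive in immature cells, and a negative value that it was more negative there. The comparison used 16 of the 24 libraries of the study, and 12850 of 24421 counted genes had enough counts to be tested.

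The animals were 8 mice, each with 1 copy of Mb1-Cre, a recombinase expressed from the Mb1 (Cd79a) locus in cells of the B lineage. In 4 mice both Vhl alleles were flanked by lox sites (VHL flox/flox), and in the other 4 only 1 allele was (flox/WT), so the controls carried the recombinase and 1 conditional allele too. Each mouse gave 1 library of sorted bone marrow proBpreB cells and 1 of immature B cells, 4 libraries for each population and genotype. Another sort, of mature B cells, entered the fit to estimate the spread, and also the choice of genes tested and the scaling. With only the 16 libraries 12628 genes were tested. The labels name the populations but not the markers of the gates, and they give no ages.

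Vhl is the substrate-binding subunit of a ubiquitin ligase that marks the alpha subunits of hypoxia-inducible factor (HIF) for degradation. Prolyl hydroxylases of the Egln family make the modification that Vhl recognises, and they need oxygen for it. Without Vhl, HIF accumulates in normal oxygen and transcribes genes for glucose uptake, glycolysis, mitophagy and vessel growth from promoters and enhancers that hold the core motif ACGTG. In the bone marrow, large pre-B cells divide rapidly, small pre-B cells leave the cell cycle to rearrange light chain genes, and immature B cells are the first to carry a complete B cell receptor.

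Vhl itself checked the genotype labels. Its level, in CPM (counts scaled to the same library size), was 6.8, 3.07, 4.29 and 8.16 in immature flox/flox replicates 1 to 4 and 47.9, 34.2, 26.7 and 33.1 in immature flox/WT. In proBpreB cells Vhl was 7.97, 15.1, 9.26 and 8.25 in flox/flox and 25.8, 24.7, 23.0 and 27.9 in flox/WT. The genotypes did not overlap in either population. The flox/flox mean was 15.7% of the flox/WT mean in immature cells and 40.1% in proBpreB cells. The log2 difference was -1.34 (SE 0.33, edgeR adjusted p = 0.00838). Within mice, the immature minus proBpreB log2 level was -0.88 ± 1.00 in flox/flox and 0.45 ± 0.31 in flox/WT (SD, n = 4 mice each; two-sided exact permutation p = 0.0286, the smallest that 70 assignments can give). Residual Vhl transcript was thus measured at a higher share of the control in the proBpreB sort, and every difference described here compares populations that also differ in this share.

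Libraries held 7850186 to 11863949 counts in all, and 3 counts, the limit that a count of 0 allows, corresponded to 0.253 to 0.382 CPM. Summed levels of 7 proBpreB markers (Igll1, Vpreb1, Vpreb2, Rag1, Rag2, Dntt and Il7r) were 1471 to 2872 CPM in the 8 proBpreB libraries and 30.5 to 70.4 CPM in the 8 immature libraries, so the stage labels and the markers matched in all 16. Markers of other cells were also present. Summed levels of 20 neutrophil and monocyte markers were 12933 to 17503 CPM in immature flox/flox against 8854 to 10460 in immature flox/WT, and 4463 to 6629 over the proBpreB libraries. Those of 13 erythroid markers were 10249 to 19028 CPM against 2480 to 8026 in the same immature groups, and 1399 to 3706 in proBpreB. Both lists were higher in every immature flox/flox library than in any immature flox/WT library. None of their markers was at 0 in all libraries of a group. Their part in the results below was not tested.

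Immature flox/flox cells had less mRNA of mitosis and DNA replication genes than their controls, by median log2 fold changes of -1.75 and -0.95, and their medians in proBpreB cells were -0.00 and 0.08. Glycolysis genes rose in both populations by similar medians, 2.81 and 2.99, while Vegfa, Aldoc and Egln3 rose more in immature cells. Ms4a1, Cd79b and Cd2, genes of the B cell surface, fell in proBpreB flox/flox cells and had no call in immature cells.

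The genotype effects differed between the populations for 1395 genes, 10.9% of those tested (edgeR quasi-likelihood test, adjusted p under 0.05). The log2 difference was positive for 606 genes (4.72%) and negative for 789 (6.14%), and its median over all 12850 genes was 0.03. These shares and this median are the background for the list counts below. Leaving out proBpreB flox/WT replicate 4 reduced the positive calls to 395. In immature cells alone 1310 genes rose (10.2%) and 1346 fell (10.5%) in flox/flox, and in proBpreB cells 434 rose (3.38%) and 354 fell (2.75%). The proBpreB calls numbered 788 in all and 493 without the same library. Both genotype effects enter the log2 difference, so these counts describe its components.

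Most negative differences came from genes that fell in immature cells only by the calls: 642 of the 789 fell in immature cells with no call in proBpreB cells. A further 21 fell in immature and rose in proBpreB cells, and 47 rose in proBpreB cells with no immature call. The positive differences were more mixed. Of the 606, 333 rose in immature cells with no proBpreB call, 126 fell in proBpreB cells with no immature call, 36 rose in both and 18 rose in immature and fell in proBpreB cells. Neither effect alone was called for 92 of the 606 and 71 of the 789.

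**Figure D1:**
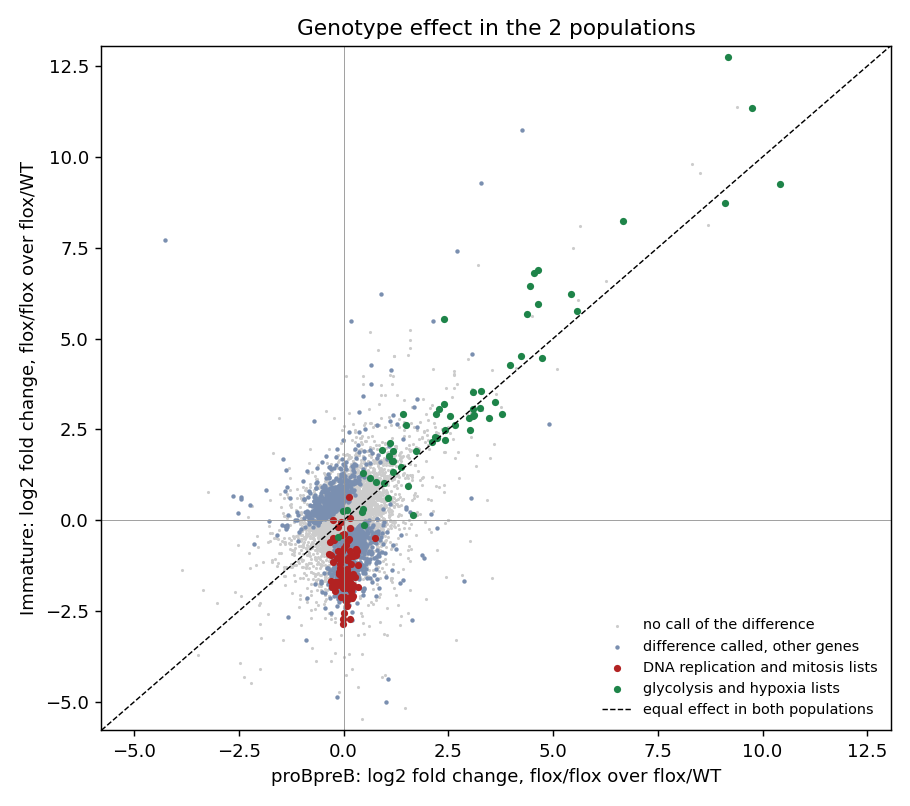
Each point is 1 of the 12850 genes, with its log2 fold change of flox/flox over flox/WT in proBpreB cells on the x axis and in immature cells on the y axis; points off the dashed line have a log2 difference other than 0. The DNA replication and mitosis lists (red) lie near 0 on the x axis and mostly below 0 on the y axis, with list medians of -0.95 and -1.75 there. The glycolysis and hypoxia lists (green) extend along the dashed line.

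Genes of mitosis made up the clearest block. Of 53 measured members of a list of mitosis, spindle and kinetochore genes, 49 had a negative call, 0 a positive one, and the median log2 difference was -1.70 against 0.03 over all genes. In immature cells 51 of the 53 fell in flox/flox (median -1.75), while in proBpreB cells 0 were called and the median was -0.00. The list summed to 9020 to 11007 CPM in proBpreB flox/flox and to 8336 to 11117 CPM in proBpreB flox/WT, whose libraries were uneven. The proBpreB median thus averages over unlike controls and does not show that an effect was absent. Between 47 and 49 negative calls were found when any 1 library was left out. The immature minus proBpreB log2 level within mice did not overlap between the genotypes for 49 of the 53, against 17.5% of all genes (8.92% of all genes were lower in flox/flox without overlap). In bulk libraries, fewer dividing cells and less RNA per dividing cell cannot be told apart.

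Cenpf, a kinetochore protein of dividing cells, had the largest negative difference among the named genes. Its level was 12.3, 7.39, 12.4 and 8.53 CPM in immature flox/flox and 31.6, 49.3, 96.7 and 91.0 CPM in immature flox/WT. In proBpreB cells the values were 133, 125, 175 and 163 in flox/flox and 158, 164, 107 and 107 in flox/WT. The immature genotypes were separate and the proBpreB genotypes overlapped. The log2 difference was -2.88 (SE 0.42, edgeR adjusted p = 6.61e-05). Mki67, the Ki-67 antigen used to mark cycling cells, was at 22.9, 15.5, 45.2 and 34.9 CPM in immature flox/flox and 64.9, 174, 352 and 272 CPM in immature flox/WT. The proBpreB values were 377, 325, 413 and 434 CPM in flox/flox and 514, 513, 249 and 286 CPM in flox/WT. All 4 immature flox/flox libraries were below all 4 immature flox/WT libraries. The proBpreB flox/WT libraries fell into a higher pair, replicates 1 and 2, and a lower pair, and those of Cenpf did too. The log2 difference of Mki67 was -2.85 (SE 0.66, edgeR adjusted p = 0.00868).

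Other mitotic motors and scaffolds moved alike. The difference was -2.69 for Kif14, a kinesin of cytokinesis, -2.55 for Cenpe, the kinetochore kinesin, and -2.43 for Aspm, a spindle pole protein. It was -2.30 for Top2a, which untangles sister chromatids, and -2.27 for Kif11, the motor that separates spindle poles. The mitotic cyclins Ccnb1 and Ccnb2 stood at -1.23 and -1.57, and their kinase Cdk1 at -1.32. Edge cases among the called members were Mad2l1, a checkpoint protein (-0.65, edgeR adjusted p = 0.0457), and Plk1, the polo kinase (-1.67, edgeR adjusted p = 0.0373).

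Promoters of the mitosis list are shown because their members moved together and share a short element. The cell cycle genes homology region, CHR, has the core TTTGAA and is known for repression of G2 and M phase genes in resting cells. It was searched on both strands in a window of 300 bases around each RefSeq start site (GRCm38.p6). TTTGAA was found in 76.1% of 46 promoters of 44 mitosis genes. The share was 12.3% over the 12295 promoters of 9703 tested genes that matched the table, and 17.9% over the 32841 promoters searched. It was 20.9% for genes with a negative call and 9.57% for genes with a positive call. Mean GC content was 58.7% in the mitosis promoters and 60.1% over the tested genes. A match describes the letters and does not show binding. The sequences below, 5′ to 3′ along the gene, carry the matches in capitals (Cenpf, chr1:189688037-189688336, minus strand; Mki67, chr7:135716330-135716629, minus strand).
Cenpf: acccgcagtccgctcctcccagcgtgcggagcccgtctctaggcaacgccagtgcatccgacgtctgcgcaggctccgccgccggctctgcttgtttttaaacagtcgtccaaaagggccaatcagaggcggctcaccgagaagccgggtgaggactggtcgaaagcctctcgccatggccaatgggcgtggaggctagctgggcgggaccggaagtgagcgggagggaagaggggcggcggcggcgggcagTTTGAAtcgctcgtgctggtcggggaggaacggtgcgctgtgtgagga
Mki67: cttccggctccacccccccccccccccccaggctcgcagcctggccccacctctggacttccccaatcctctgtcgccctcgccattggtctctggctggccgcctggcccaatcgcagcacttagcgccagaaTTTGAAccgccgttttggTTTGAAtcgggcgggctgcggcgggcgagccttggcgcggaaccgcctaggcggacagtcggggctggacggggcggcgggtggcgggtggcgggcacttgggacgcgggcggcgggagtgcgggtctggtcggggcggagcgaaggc

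The smallest adjusted p-values belonged mainly to genes of S phase and chromatid cohesion. 2810417H13Rik, which encodes the PCNA-associated factor Pclaf, was at 59.2, 64.9, 54.5 and 77.4 CPM in immature flox/flox and 274, 256, 286 and 267 CPM in immature flox/WT. In proBpreB cells 2810417H13Rik was at 555, 512, 505 and 586 CPM and 626, 596, 719.6 and 575 CPM in the same order. The immature genotypes were separate, the proBpreB genotypes overlapped, and the difference was -1.86 (SE 0.18, edgeR adjusted p = 5.58e-07). Esco2, the acetyltransferase that establishes cohesion, was at 8.53, 13.4, 9.3 and 11.5 CPM in immature flox/flox and 41.9, 42.0, 57.2 and 42.7 CPM in immature flox/WT. The proBpreB values of Esco2 were 118, 114, 108 and 127 CPM in flox/flox and 115, 116, 138 and 114 CPM in flox/WT, which overlapped. Its difference was -2.06 (SE 0.21, edgeR adjusted p = 6.09e-07).

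Casc5, the kinetochore scaffold also called Knl1, and Cdca3, a regulator of mitotic entry, had differences of -2.17 (edgeR adjusted p = 6.09e-07) and -1.78 (edgeR adjusted p = 9.63e-07). In both genes the immature flox/flox range, 9.21 to 15.4 CPM and 16.5 to 19.9 CPM, lay below the flox/WT range of 38.6 to 62.8 and 49.8 to 76.0 CPM.

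Among 43 genes of origin licensing and DNA replication, 35 had a negative call and 0 a positive one, with a median of -1.09. In immature cells 38 fell (median -0.95), and in proBpreB cells 1 rose and 0 fell (median 0.08). Mcm10, which acts with the replicative helicase, was at 6.00, 3.63, 11.8 and 11.0 CPM in immature flox/flox and 27.0, 33.9, 41.1 and 37.5 CPM in flox/WT. In proBpreB cells Mcm10 was at 79.2, 70.2, 68.5 and 93.7 CPM and 81.9, 71.0, 57.7 and 53.9 CPM, with overlap. Its log2 difference was -2.33 (SE 0.36, edgeR adjusted p = 0.000112). All 6 subunits of the helicase itself, Mcm2 to Mcm7, were called: -1.23, -1.24, -1.21, -1.19, -1.58 and -1.14 in numerical order.

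Most polymerase subunits followed. Pole, the catalytic subunit of the leading-strand polymerase, was at 11.7, 18.1, 19.1 and 14.8 CPM in immature flox/flox and 35.9, 63.5, 69.4 and 59.3 CPM in immature flox/WT. Its proBpreB values were 67.0, 64.0, 80.4 and 89.0 CPM and 71.0, 70.7, 50.03 and 46.6 CPM. The difference was -2.17 (SE 0.29, edgeR adjusted p = 1.04e-05). Pola1, the catalytic subunit that starts each Okazaki fragment, was at 13.9, 21.3, 29.9 and 24.2 CPM and 95.9, 61.3, 88.8 and 78.4 CPM in immature cells of flox/flox and flox/WT. In proBpreB cells Pola1 was at 101, 90.5, 107 and 114 CPM and 102, 108, 80.5 and 70.8 CPM, and the difference was -2.05 (SE 0.32, edgeR adjusted p = 9.51e-05). For both polymerase genes the immature genotypes were separate and the proBpreB genotypes overlapped. In these genes and Mcm10, replicates 1 and 2 were again the higher pair of proBpreB flox/WT. Pold1, the catalytic subunit of the lagging-strand polymerase, was not called (-0.09, edgeR adjusted p = 0.816), nor was Pole2, an accessory subunit (-0.63, edgeR adjusted p = 0.105). Uhrf1, which carries DNA methylation through replication, had a difference of -1.86, and the sliding clamp Pcna -0.85.

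The E2F site, through which E2F factors and the retinoblastoma family control S phase genes, was also counted in the promoters. TTTGGCGC or TTTCCCGC on either strand was found in 27.5% of 40 promoters of 34 replication genes. The share was 2.86% over the tested genes, 6.65% for genes with a negative call and 1.54% for genes with a positive one. The Pola1 promoter (GRCm38.p6, chrX:93632106-93632405, minus strand) is printed as an example, with the reverse-strand match in capitals.
Pola1: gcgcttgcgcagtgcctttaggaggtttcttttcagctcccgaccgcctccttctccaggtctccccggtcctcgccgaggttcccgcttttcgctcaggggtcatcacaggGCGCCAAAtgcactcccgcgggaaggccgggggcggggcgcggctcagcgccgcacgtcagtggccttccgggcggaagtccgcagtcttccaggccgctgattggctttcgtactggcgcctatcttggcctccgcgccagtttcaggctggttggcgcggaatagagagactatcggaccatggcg

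Control of the G1 phase was less uniform. Of 22 measured G1 cyclins, kinases, E2F factors and inhibitors, 9 had a negative and 2 a positive call (median -0.56). Of all genes 6.14% and 4.72% did. The 9 became 6 without proBpreB flox/flox replicate 4. Ccnd2, 1 of the D-type cyclins on the list and the only one called, moved in opposite directions in the 2 populations. It was at 271, 223, 262 and 241 CPM in immature flox/flox and 538, 511, 505 and 395 CPM in immature flox/WT. In proBpreB cells Ccnd2 was at 119.9, 86.0, 103 and 103 CPM in flox/flox and 70.1, 67.2, 60.0 and 35.1 CPM in flox/WT. Flox/flox was lower than flox/WT in all immature libraries and higher in all proBpreB libraries, with log2 fold changes of -0.97 ± 0.18 and 0.82 ± 0.18 (SE), both called. The log2 difference was -1.79 (SE 0.25, edgeR adjusted p = 2.75e-05).

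Ccne1, the cyclin that starts S phase, was at 9.33, 9.07, 11.6 and 13.4 CPM in immature flox/flox against 27.5, 32.6, 31.4 and 33.6 CPM in flox/WT. Its proBpreB values were 29.8, 36.7, 38.7 and 37.4 CPM and 45.8, 45.9, 47.3 and 36.8 CPM. The immature genotypes were separate, and its log2 difference was -1.22 (SE 0.20, edgeR adjusted p = 0.000168). E2f7, a repressive E2F factor, stood at -2.26, Cdk6 at -0.95, Cdk4 at -0.47 and the inhibitor Cdkn2c at -1.04. The positive calls were the inhibitors Cdkn1b, p27 (0.90, edgeR adjusted p = 0.0494), and Cdkn2d, p19Ink4d (0.66, edgeR adjusted p = 0.00621). The call of Cdkn1b was lost with the mouse as a block (edgeR adjusted p = 0.067) and without any 1 of 11 of the 16 libraries.

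Myc, the transcription factor of growth, behaved like Ccnd2. Its level was 49.6, 52.3, 65.2 and 67.8 CPM in immature flox/flox and 86.6, 85.7, 97.6 and 97.2 CPM in immature flox/WT. In proBpreB cells Myc was 108, 65.2, 75.5 and 86.7 CPM in flox/flox and 65.0, 52.4, 34.8 and 21.4 CPM in flox/WT, where flox/WT ranged widely and its highest value lay just under the lowest of flox/flox. The fold changes were -0.64 ± 0.22 and 0.95 ± 0.22 (log2 ± SE), both called, and the difference was -1.59 (SE 0.31, edgeR adjusted p = 0.00124). Mxi1, a Myc antagonist and known HIF target, had the opposite sign, 0.69, and rose in both populations. Mlxip, a glucose-sensing partner of the network, was at 0.67 and fell in proBpreB cells.

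**Figure D2:**
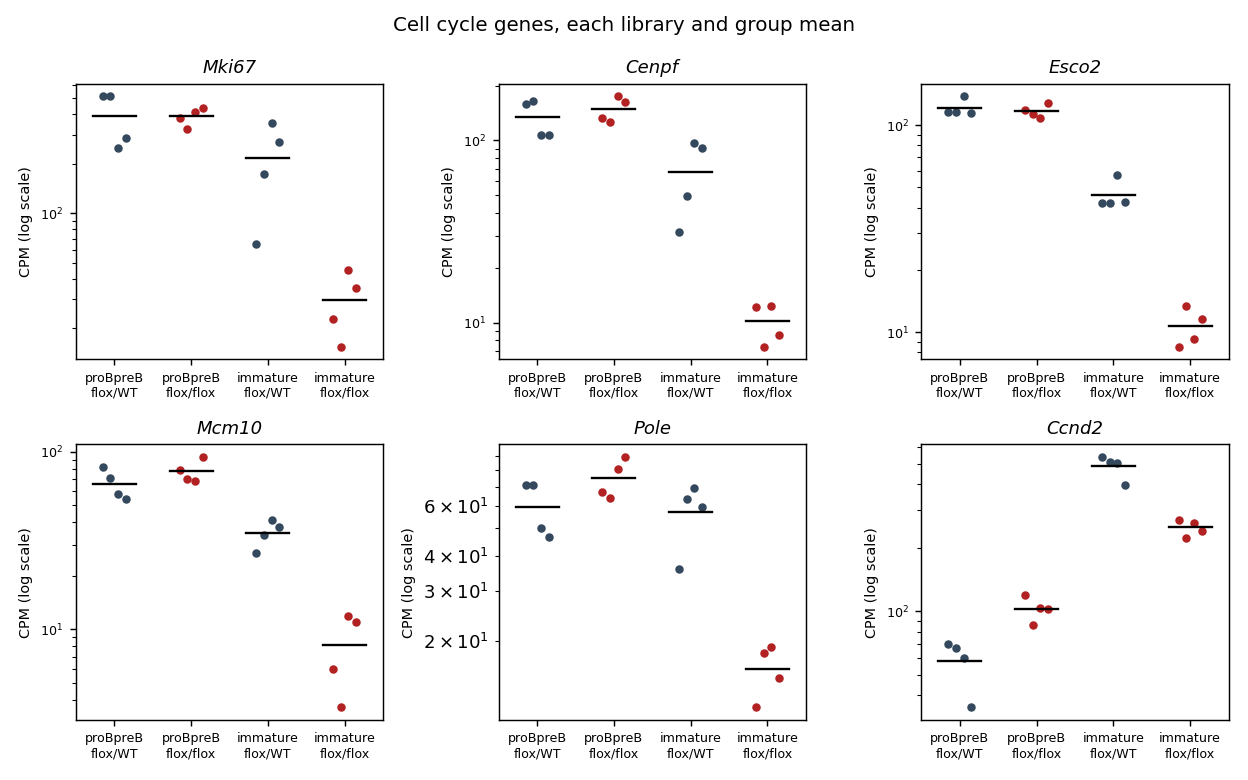
CPM of 6 cell cycle genes on log axes, each point 1 library of 4 per group and each bar the group mean. In the immature sort, flox/flox (red) lies below flox/WT for all 6 genes. In the proBpreB sort the genotypes overlap except for Ccnd2, which is higher in flox/flox.

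Enzymes that supply nucleotides and one-carbon units moved with the replication genes. Of 18 serine and one-carbon enzymes, 10 had a negative call and 0 a positive one (median -0.66), and all 18 differences were below 0. Shmt1, which moves one-carbon units from serine to folate, was at 16.1, 11.7, 19.1 and 13.2 CPM in immature flox/flox and 42.3, 42.4, 33.6 and 31.2 CPM in flox/WT. In proBpreB cells Shmt1 was at 53.9, 35.9, 38.1 and 46.1 CPM and 47.4, 36.1, 27.3 and 24.4 CPM, with overlap, and the difference was -1.67 (SE 0.32, edgeR adjusted p = 0.000909). Phgdh, the first enzyme of serine synthesis, differed by -1.18, Mthfd1 of the folate cycle by -1.42, and Psat1 by -0.92. Tyms, which makes thymidylate, is in the replication list as well, at -1.43.

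Sterol synthesis genes had a median of -0.36 over 28 measured members of a cholesterol and fatty acid list, with 5 negative and 1 positive call. The shares over all genes were 6.14% negative and 4.72% positive. Sqle, squalene epoxidase, was at 6.66, 3.77, 7.15 and 4.14 CPM in immature flox/flox and 14.3, 19.8, 23.6 and 20.9 CPM in flox/WT. Its proBpreB values were 35.6, 39.6, 38.1 and 37.6 CPM in flox/flox and 27.9, 28.1, 33.4 and 25.5 CPM in flox/WT. The genotypes were separate in both populations and in opposite directions, although only the immature fold change, -1.85 ± 0.22, was called; in proBpreB cells it was 0.39 ± 0.19 (log2 ± SE). The difference was -2.25 (SE 0.29, edgeR adjusted p = 7.78e-06). The sterol enzymes Idi1 and Cyp51 stood at -1.06 and -1.06. Scd1, a fatty acid desaturase, was the positive call (0.61), and it was lost without proBpreB flox/WT replicate 4.

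The HIF response was strong in both populations, and here the differences were of degree. Of 23 genes of glucose uptake and glycolysis, 21 rose in each population, with median log2 fold changes of 2.81 in immature and 2.99 in proBpreB cells. Only 3 had a positive and 2 a negative log2 difference by the calls, where 4.72% and 6.14% of all genes did. The list median was 0.05. The negative calls numbered 4 with the mouse as a block and also without proBpreB flox/WT replicate 1. They numbered 1 without replicate 1 or 4 of either flox/flox group, replicate 2 or 3 of immature flox/WT, or replicate 3 or 4 of proBpreB flox/WT.

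For most glycolytic enzymes the fold changes were close. Tpi1, triosephosphate isomerase, had log2 fold changes of 4.28 ± 0.14 in immature and 3.97 ± 0.14 in proBpreB cells (SE), with a 95% interval of the difference of -0.05 to 0.68. The interval was -0.05 to 0.63 for Pgk1, phosphoglycerate kinase, and -0.54 to 0.21 for Pkm, pyruvate kinase. Slc16a3, the lactate exporter, changed by 5.75 ± 0.17 and 5.57 ± 0.17, and its interval was -0.25 to 0.62. No call of the difference was made for these 4 genes, and the intervals give the sizes that the data allow.

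Aldoc, the aldolase isoform C, had the largest difference of the glycolysis list. Its level was 371, 347, 339 and 357 CPM in immature flox/flox and 2.02, 2.54, 3.79 and 3.89 CPM in immature flox/WT. In proBpreB cells Aldoc was 54.9, 48.4, 45.7 and 44.7 CPM in flox/flox and 2.02, 2.23, 1.29 and 2.61 CPM in flox/WT. Controls had similar low levels in both populations, and flox/flox immature cells reached several times the level of flox/flox proBpreB cells. The log2 difference was 2.25 (SE 0.25, edgeR adjusted p = 9.99e-07). Its paralog Aldoa went the other way. Aldoa was at 3092, 3214, 2979.7 and 2863 CPM and 499, 429, 387 and 398 CPM in immature flox/flox and flox/WT, and at 1791, 1571, 1461 and 1606 CPM and 159, 142, 129 and 153 CPM in proBpreB cells. It was higher in immature cells in both genotypes, and its difference was -0.64 (SE 0.15, edgeR adjusted p = 0.0062). The other positive calls were Pfkfb3, which makes the activator of phosphofructokinase (1.15), and the glucose transporter Slc2a3 (0.74).

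Oxygen sensors also differed. Egln3, the prolyl hydroxylase that HIF itself induces, was at 168, 214, 157 and 181 CPM in immature flox/flox and 1.77, 2.54, 2.1 and 1.85 CPM in immature flox/WT. In proBpreB cells its level was 105, 85.7, 79.2 and 85.9 CPM in flox/flox and 3.59, 4.93, 3.69 and 3.95 CPM in flox/WT. In immature cells the flox/flox level was higher and the flox/WT level lower than in proBpreB cells. The log2 difference was 2.00 (SE 0.23, edgeR adjusted p = 1.88e-06). Egln1, the main HIF hydroxylase, differed by 0.79 (SE 0.20, edgeR adjusted p = 0.00803). No call was made for Hif1a (-0.05), Arnt (0.02), Egln2 (0.04) or Hif1an (-0.18), which encode 2 HIF subunits and the remaining hydroxylases. The HIF alpha subunits Epas1 (0.32) and Hif3a (-0.62) had no call of the difference either. Their log2 fold changes were 1.25 and 3.13 in immature and 0.93 and 3.75 in proBpreB cells.

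In a broader list of 39 hypoxia-response genes, 34 rose in each population, and 12 had a positive and 1 a negative log2 difference by the calls. The list holds Egln1 and Egln3, 2 of the 12, as well as Pdk1 of the glycolysis list. The list median was 0.44. It was 0.19 with 4 members that had 0 counts in all immature flox/WT libraries set to the bound that 3 counts over the group gives. These 4 were Vldlr, Stc2, P4ha2 and Cox4i2, and none of them had a call. Vldlr, a lipoprotein receptor, was at 95.8, 82.9, 95.5 and 86.0 CPM in immature flox/flox and 44.2, 46.0, 44.1 and 45.9 CPM in proBpreB flox/flox, and at 0 in 7 of the 8 control libraries.

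The 12 positive calls had more than 1 form. Vegfa, the vessel growth factor, was at 101, 96.1, 104 and 94.7 CPM in immature flox/flox and 1.89, 2.67, 2.19 and 1.85 CPM in immature flox/WT. Its proBpreB levels were 104, 87.0, 87.3 and 88.4 CPM in flox/flox and 17.8, 15.4, 23.3 and 13.0 CPM in flox/WT. The flox/flox libraries of the 2 populations overlapped, and the controls did not, so the log2 difference of 3.12 (SE 0.36, edgeR adjusted p = 2.55e-06) went with the level in control cells. Plod2, a collagen lysyl hydroxylase, had the same form, with 76.9, 98.8, 73.1 and 77.2 CPM and 0.631, 0.508, 0.757 and 0.74 CPM in immature flox/flox and flox/WT. It was at 82.7, 76.9, 75.2 and 79.5 CPM and 2.85, 3.7, 3.5 and 2.52 CPM in proBpreB cells, and its difference was 2.26 (SE 0.31, edgeR adjusted p = 1.71e-05).

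Bnip3, a mitophagy receptor of the outer mitochondrial membrane, was at 1235, 1349, 1086 and 1303 CPM in immature flox/flox and 24.1, 21.3, 18.7 and 16.3 CPM in flox/WT. In proBpreB cells Bnip3 was at 1067, 1154, 1100.0 and 1185 CPM and 39.2, 42.0, 46.3 and 53.3 CPM. The flox/flox ranges overlapped and the flox/WT ranges did not, and the difference was 1.32 (SE 0.17, edgeR adjusted p = 7.71e-06). In Ndrg1, a hypoxia-induced stress gene, the flox/flox levels themselves differed: 153, 117, 128 and 121 CPM in immature against 59.8, 56.3, 54.2 and 58.4 CPM in proBpreB cells. Its control levels overlapped, at 14.0, 22.1, 11.9 and 20.2 CPM and 23.7, 22.2, 18.1 and 21.9 CPM, and its difference was 1.52 (SE 0.22, edgeR adjusted p = 2.89e-05). Bnip3l, a relative of Bnip3, differed by 0.73, the lipid droplet protein Hilpda by 1.02 and the histone demethylase Kdm4b by 0.83. The negative call was Bhlhe40, a circadian and hypoxia-induced repressor (-1.51, edgeR adjusted p = 1.3e-05), with log2 fold changes of 0.14 in immature and 1.65 in proBpreB cells.

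**Figure D3:**
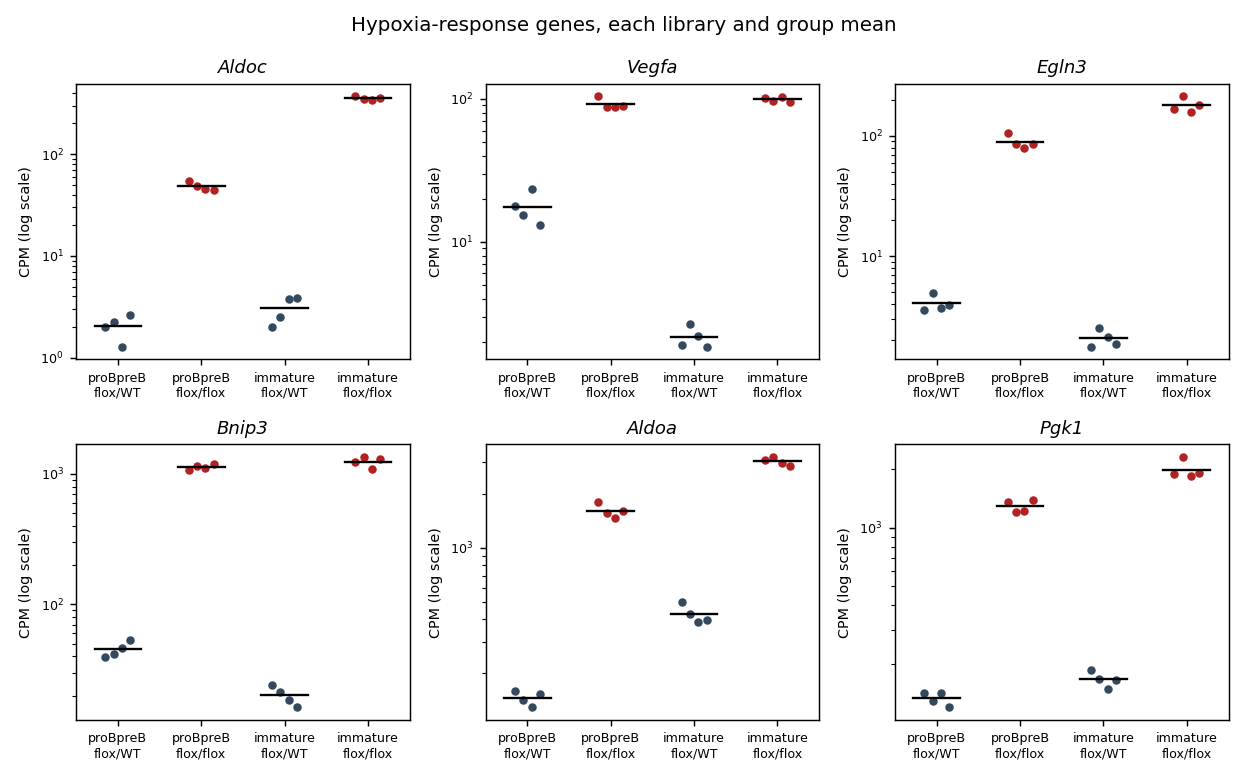
CPM of 6 HIF-responsive genes on log axes, each point 1 library of 4 per group and each bar the group mean. All 6 are separate between genotypes in both populations. The flox/flox levels of Vegfa and Bnip3 are alike in the 2 populations while their flox/WT levels differ, and Aldoc shows the reverse.

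The HIF core motif was counted in the same windows. ACGTG on either strand was in 51.4% of 35 glycolysis promoters and 48.8% of 43 promoters of the other hypoxia genes, against 25.1% over the tested genes. It was in 24.4% of promoters of genes with a positive call and 27.3% of those with a negative call. The promoters of Aldoc (1 of 2 in the table), Egln3 and Bnip3 are printed because each holds the motif, given in capitals as ACGTG or its reverse complement CACGT; in Bnip3 the matches on the 2 strands overlap. Their windows on GRCm38.p6 are chr11:78322823-78323122, plus strand, chr12:54203825-54204124, minus strand, and chr7:138909457-138909756, minus strand.
Aldoc: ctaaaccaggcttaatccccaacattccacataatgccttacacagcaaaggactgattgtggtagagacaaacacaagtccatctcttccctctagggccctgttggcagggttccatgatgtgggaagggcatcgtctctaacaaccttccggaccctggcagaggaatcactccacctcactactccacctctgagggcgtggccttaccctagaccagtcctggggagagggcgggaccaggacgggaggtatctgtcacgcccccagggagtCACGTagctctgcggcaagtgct
Egln3: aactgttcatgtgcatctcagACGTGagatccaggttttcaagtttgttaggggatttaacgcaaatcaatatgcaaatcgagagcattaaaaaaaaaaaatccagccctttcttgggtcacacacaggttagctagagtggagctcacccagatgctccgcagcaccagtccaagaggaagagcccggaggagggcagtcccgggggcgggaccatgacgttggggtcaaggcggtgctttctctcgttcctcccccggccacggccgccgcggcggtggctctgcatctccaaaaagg
Bnip3: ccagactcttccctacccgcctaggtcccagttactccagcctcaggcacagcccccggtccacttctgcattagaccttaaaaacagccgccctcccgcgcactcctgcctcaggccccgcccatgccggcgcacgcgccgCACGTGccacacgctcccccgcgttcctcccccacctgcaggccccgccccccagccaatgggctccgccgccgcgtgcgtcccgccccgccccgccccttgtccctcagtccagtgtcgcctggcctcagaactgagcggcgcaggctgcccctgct

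Several of the largest positive differences lay outside the hypoxia lists. In most of these genes the proBpreB level was high in both genotypes and the immature level was high only in flox/flox. Smtnl2, a smoothelin-like protein, was at 50.2, 69.5, 54.5 and 68.5 CPM in immature flox/flox and 1.52, 5.59, 4.54 and 5.92 CPM in immature flox/WT. Its proBpreB levels were 201, 171, 151 and 182 CPM in flox/flox and 94.9, 116, 138 and 102 CPM in flox/WT. The genotypes were separate in both populations, with a call in immature cells alone, and the difference was 3.12 (SE 0.32, edgeR adjusted p = 9.4e-07). Cox6a2, a cytochrome oxidase subunit isoform, was at 51.4, 65.3, 49.7 and 63.6 CPM and 4.42, 7.87, 2.61 and 6.76 CPM in immature cells of flox/flox and flox/WT. In proBpreB cells Cox6a2 was at 74.1, 99.2, 90.1 and 77.1 CPM and 47.2, 52.0, 72.5 and 76.8 CPM, which overlapped, and the difference was 2.97 (SE 0.34, edgeR adjusted p = 2.55e-06). Cox6a2 is also on the list of plasmacytoid dendritic cell markers.

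Thbd, thrombomodulin, showed 51.0, 77.2, 47.7 and 56.3 CPM in immature flox/flox and 14.3, 12.1, 14.9 and 17.8 CPM in immature flox/WT. Its proBpreB values were 99.5, 80.1, 95.7 and 87.7 CPM and 104, 101, 93.9 and 104 CPM. Only the immature genotypes were separate, and the difference was 2.12 (SE 0.24, edgeR adjusted p = 1.77e-06). Itga9, an integrin alpha chain (2.22), Gpr12, an orphan G protein-coupled receptor (2.31), Klra1, a lectin-like receptor (2.18), and Lrrn3 (2.14) had the same form. For these 7 genes the immature flox/WT libraries lay below all proBpreB libraries of that genotype.

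Early B cell genes as a group leaned towards positive differences. Of 31 measured pro-B and pre-B genes, 9 had a positive and 2 a negative call, with a median of 0.35. Of all genes 4.72% and 6.14% did. The list's median log2 fold change was 0.08 in immature and -0.19 in proBpreB cells. When 1 library was left out, the positive calls numbered 6 to 8 and the negative ones 1 or 2. In flox/WT these genes fell from the proBpreB to the immature sort by a median of 2.13 on the log2 scale, and in flox/flox by 1.22. The 2 medians can come from different genes, so their gap need not equal the median difference of 0.35. Vpreb3, a chaperone-like protein of the pre-B cell receptor, was at 1305, 1017, 925 and 960.0 CPM in immature flox/flox and 369.8, 566, 412 and 522 CPM in immature flox/WT. In proBpreB cells Vpreb3 was at 740.4, 663, 664 and 672 CPM in flox/flox and 924, 932, 919 and 867 CPM in flox/WT. Flox/flox was higher in all immature and lower in all proBpreB libraries, though only the immature fold change was called, and the difference was 1.58 (SE 0.20, edgeR adjusted p = 7.71e-06). The stage marker Vpreb1, a surrogate light chain, was at 4.66, 7.95, 5.96 and 14.4 CPM in immature flox/flox and 2.4, 2.92, 4.12 and 3.52 CPM in immature flox/WT, against 208 to 662 CPM in proBpreB flox/WT. Its difference, 1.01 (SE 0.51, edgeR adjusted p = 0.24), was not called, nor was that of any of the 7 proBpreB sort markers.

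Other early genes with a positive call were Cd93, a surface protein of developing B cells (1.07), Bach2, a repressor of plasma cell fate (0.95), Foxo1, a factor needed for light chain rearrangement (0.73), and Sox4 (0.79). Cd2, an adhesion molecule acquired at the pre-B stage, had another form. It was at 182, 195, 177 and 187 CPM and 197, 203, 193 and 224 CPM in immature flox/flox and flox/WT, and at 30.7, 37.6, 35.2 and 29.3 CPM and 76.7, 88.4, 86.8 and 116 CPM in proBpreB cells. It fell in flox/flox proBpreB cells only by the calls, and the difference was 1.33 (SE 0.17, edgeR adjusted p = 6.53e-06). Lef1, a factor of pro-B cell growth, had the negative call of largest size (-1.08).

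Genes of later B cells were split. Of 32 mature B cell genes, 8 had a positive and 5 a negative call (median 0.29), where 4.72% and 6.14% of all genes did. The positive ones mostly fell in proBpreB cells and had no call in immature cells. Ms4a1, which encodes CD20, was at 4848, 5442, 4867 and 5026 CPM in immature flox/flox and 6112, 5479, 4511 and 4286 CPM in immature flox/WT. In proBpreB cells Ms4a1 was at 60.5, 30.3, 47.5 and 28.1 CPM in flox/flox and 159, 102, 134 and 176 CPM in flox/WT. The immature genotypes overlapped and the proBpreB genotypes did not, with a difference of 1.77 (SE 0.26, edgeR adjusted p = 3.67e-05). Cd40, the costimulatory receptor (1.14), Klf2, a factor of B cell trafficking (1.00), the chemokine receptor Ccr7 (0.79) and the complement regulator Cd55 (0.86) shared this form.

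Some B cell receptor genes had the same form. Of 29 signalling genes, 7 had a positive and 0 a negative call and 22 had none, where 4.72% and 6.14% of all genes were called. The median, 0.04, was close to that of all genes. Without immature flox/WT replicate 3 the positive calls numbered 4. Cd79b, the signalling chain of the receptor, was at 4678, 3879, 3914 and 3640.3 CPM and 3890.0, 4122, 3343 and 3746 CPM in immature flox/flox and flox/WT. In proBpreB cells Cd79b was at 966, 902, 946 and 889.8 CPM and 1449.9, 1544, 1625 and 1953 CPM. Only the proBpreB genotypes were separate, and the difference was 0.92 (SE 0.14, edgeR adjusted p = 8.39e-05). The inhibitory receptor Fcgr2b differed by 0.73 and the kinase Lyn by 0.58, and both fell in proBpreB flox/flox cells alone by the calls. Other markers moved with these falls in the proBpreB sort: the 7 B lineage markers, Cd79b included, summed to 3509 to 3610.5 CPM in flox/flox and 4829 to 5695 CPM in flox/WT, and 3 of the 7 fell. Of 11 T cell markers 3 rose there in flox/flox and 0 fell. Over all genes 3.38% rose and 2.75% fell in that sort. None of either list's markers was at 0 in all libraries of a group, and their part in the falls was not tested.

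Negative calls among the later genes included those of antigen presentation. H2-Eb1, a class II beta chain, was at 392, 307, 281 and 293 CPM and 1057, 918, 1108 and 1001 CPM in immature cells. In proBpreB cells H2-Eb1 was at 44.2, 82.5, 71.0 and 42.7 CPM and 83.4, 76.3, 81.5 and 107 CPM, with overlap. It fell in both by the calls, and the difference was -1.15 (SE 0.23, edgeR adjusted p = 0.00115). H2-Aa and H2-Ab1 differed by -0.95 and -0.86. These 3 were the class II list's calls among 16 measured members, whose median was -0.12. A negative call was made for 6.14% of all genes. With the mouse as a block 1 more class II member was called, and it was positive.

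**Figure D4:**
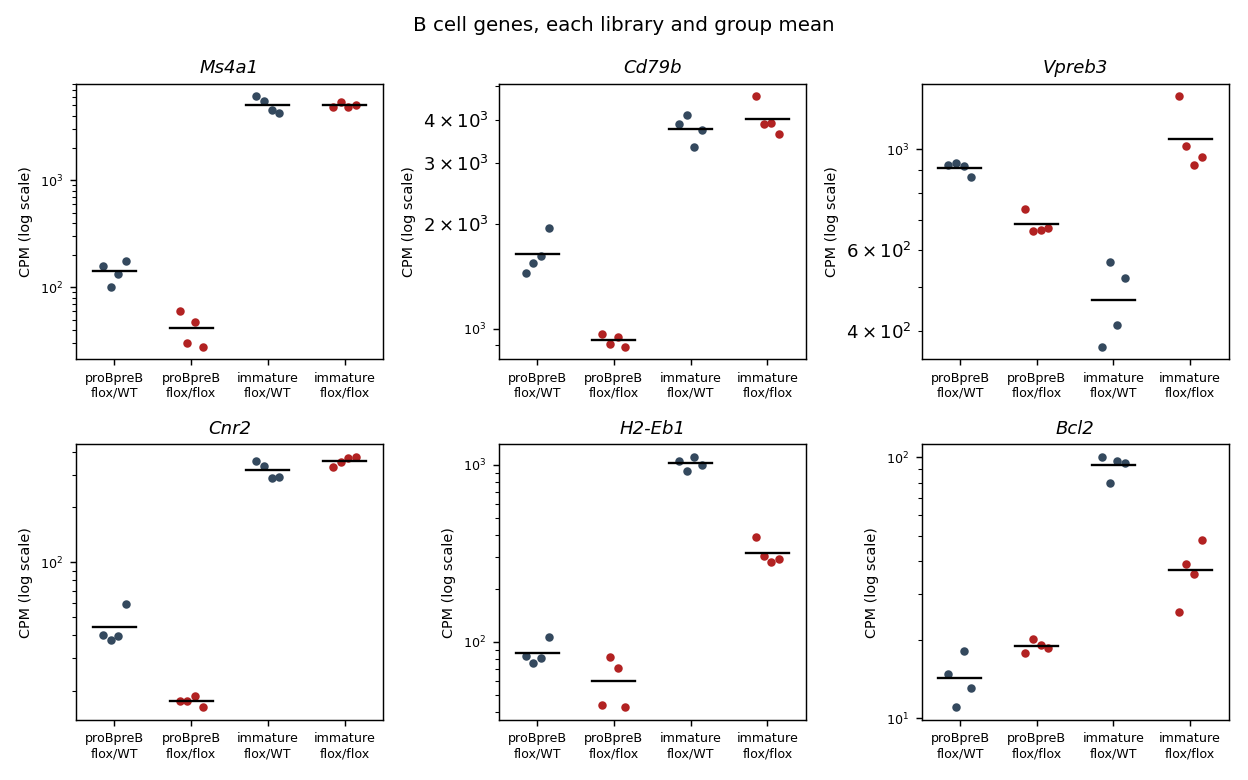
CPM of 6 B cell genes on log axes, each point 1 library of 4 per group and each bar the group mean. Ms4a1, Cd79b and Cnr2 are lower in flox/flox in the proBpreB sort only, H2-Eb1 and Bcl2 are lower in flox/flox in the immature sort, and Vpreb3 is higher in flox/flox in the immature sort and lower in the proBpreB sort.

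Receptors that position B cells were divided likewise. Among 27 chemokine receptor, egress and adhesion genes, 5 had a positive and 4 a negative call (median -0.05). Of all genes 4.72% and 6.14% did. Cnr2, the cannabinoid receptor that holds immature B cells in marrow sinusoids, was at 329, 349, 368 and 374 CPM and 355, 336, 289 and 292 CPM in immature flox/flox and flox/WT. In proBpreB cells Cnr2 was at 17.6, 17.5, 18.6 and 16.2 CPM and 40.1, 37.9, 39.7 and 59.0 CPM. Only the proBpreB genotypes were separate, with flox/flox lower, and the difference was 1.49 (SE 0.18, edgeR adjusted p = 2.85e-06). Itgb7, an integrin beta chain, differed by -1.20, Itgal by -0.82 and the follicle-homing receptor Cxcr5 by -0.89. The G protein regulator Rgs2 and the sphingosine phosphate receptor S1pr4 had positive calls, 1.08 and 0.80.

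The Bcl2 family holds inhibitors and promoters of apoptosis, and of 16 measured members 3 had a positive and 4 a negative call. Over all genes the shares were 4.72% and 6.14%. Bnip3 of the hypoxia list was among the 3 positive calls, and Bcl2 was the only inhibitor of apoptosis called. Bcl2, the founding inhibitor of apoptosis, was at 25.6, 39.1, 35.6 and 48.1 CPM in immature flox/flox and 101, 80.1, 96.8 and 95.5 CPM in immature flox/WT. In proBpreB cells Bcl2 was at 17.7, 20.2, 19.2 and 18.5 CPM and 14.7, 11.0, 18.1 and 13.0 CPM. The immature genotypes were separate and the proBpreB genotypes overlapped, and the difference was -1.74 (SE 0.23, edgeR adjusted p = 9.04e-06). The list's negative calls numbered 2 without any 1 of 10 of the 16 libraries. The antagonists of Bcl2 were split: Bid, which links death receptors to mitochondria, stood at -1.08, and Bcl2l11, the BH3 protein Bim, at 0.78. Bmf, another BH3 protein, stood at 1.21. The negative calls of Pmaip1 and Bbc3, both BH3 proteins and p53 targets, lay at edgeR adjusted p = 0.0413 and 0.0496 and were lost in 13 of 23 and 18 of 22 alternatives, respectively; with the mouse as a block Pmaip1 reached edgeR adjusted p = 0.0627. Of 22 p53 targets, 3 had a positive and 3 a negative call, where 4.72% and 6.14% of all genes did. The negative calls of this list numbered 1 without any 1 of the same 10 libraries. Its largest called differences were those of Gtse1, a G2 phase protein (-1.61), and Rrm2b, the p53-induced ribonucleotide reductase subunit (1.29).

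Some lists showed little. Of 34 nuclear subunits of oxidative phosphorylation 0 were called (median 0.06), of 24 tricarboxylic acid cycle genes 1, of 75 cytosolic ribosomal proteins 1 (median 0.16) and of 26 interferon response genes 1. Over all genes 10.9% had a call in either direction. The single calls of the tricarboxylic acid and interferon lists each disappeared when 1 of several libraries was left out, and with the mouse as a block the lists had 2 and 3 calls. Ribosomal protein Rpl4 was the called one (-0.58 (SE 0.14, edgeR adjusted p = 0.00806)). Among 64 replication-dependent histones, 3 had a positive and 1 a negative call, where 4.72% and 6.14% of all genes did. With the mouse as a block the calls numbered 6 and 0, and without 1 library 3 to 6 and 0 to 3. Both medians of the genotype effect were negative, -0.69 in immature and -0.73 in proBpreB cells. Counts of Hist2h2aa1 and Hist2h2aa2, near-identical copies, were equal in 15 of the 16 libraries, so they are 1 measurement.

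Metallothionein Mt1, a metal-binding stress protein, rose in proBpreB cells and had no call in immature cells, as did Bhlhe40. Mt1 was at 30.8, 39.1, 33.8 and 49.4 CPM in proBpreB flox/flox and 5.06, 4.85, 5.25 and 3.42 CPM in proBpreB flox/WT. In immature cells it was at 3.2, 4.05, 6.68 and 7.03 CPM and 0.884, 4.57, 4.21 and 3.89 CPM, with overlap, and the difference was -2.42 (SE 0.47, edgeR adjusted p = 0.000929). Nfatc2, a calcium-regulated transcription factor, was at 2.4, 2.09, 3.81 and 4.14 CPM and 9.22, 12.7, 21.5 and 10.00 CPM in immature flox/flox and flox/WT. Its proBpreB values were 6.47, 6.37, 6.76 and 6.6 CPM and 3.86, 2.85, 3.13 and 5.48 CPM, separate in the opposite direction but without a call there. Its difference was -2.87 (SE 0.35, edgeR adjusted p = 4.36e-06). Alpl, tissue-nonspecific alkaline phosphatase (-2.45), Pask, a PAS domain kinase (-2.58), Ticrr, which initiates replication (-2.44), Nid1, a basement membrane protein (-2.39), and the antisense gene Chd3os (-2.64) completed the 12 largest negative differences. Reads of Chd3os and Chd3 cannot be told apart where they overlap, since the use of strand in counting is not given.

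Markers of some other cells also differed. Of 20 neutrophil and monocyte markers 5 had a positive call, where 4.72% of all genes did, and the median was 0.39. S100a8, an abundant neutrophil protein, was at 3233, 3089, 2255 and 2812 CPM in immature flox/flox and 1713, 1404, 1336 and 1676 CPM in immature flox/WT. In proBpreB cells S100a8 was at 877, 860.3, 784 and 684 CPM and 838, 641, 1243 and 1238 CPM. Flox/flox was higher in all immature libraries, the proBpreB genotypes overlapped, and the difference was 1.20 (SE 0.29, edgeR adjusted p = 0.00731). The 5 calls became 3 without immature flox/WT replicate 2 or 3, proBpreB flox/WT replicate 3 or 4, or proBpreB flox/flox replicate 4. All 13 erythroid markers had a positive difference (median 0.60) and 0 were called, but with the mouse as a block 4 were, among them the beta globin Hbb-bs (1.06, edgeR adjusted p = 0.261, with the block 0.00508). Of 12 plasmacytoid dendritic cell markers 2 had a positive and 2 a negative call, where 4.72% and 6.14% of all genes did. With the mouse as a block the calls numbered 2 and 4. The 2 negative calls without the block became 1 without immature flox/flox replicate 1, proBpreB flox/flox replicate 2 or immature flox/WT replicate 4. T cell, natural killer, plasma cell and stromal lists had 0 calls each of 11, 12, 8 and 6 tested members. With the mouse as a block 1 T cell marker and 1 plasma cell marker had a negative call and 1 stromal marker a positive one. In the plasma cell list Prdm1, the regulator of plasma cell fate, stood at -1.86 with edgeR adjusted p = 0.0597, and 0.0218 with the block. Summed T cell markers were 178 to 248 CPM in proBpreB flox/flox and 121 to 146 CPM in proBpreB flox/WT, without overlap, and 35.4 to 53.3 CPM over the immature libraries. Natural killer markers summed to 316 to 482 CPM, 239.8 to 347 CPM and 24.6 to 58.2 CPM in the same order.

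**Figure D5:**
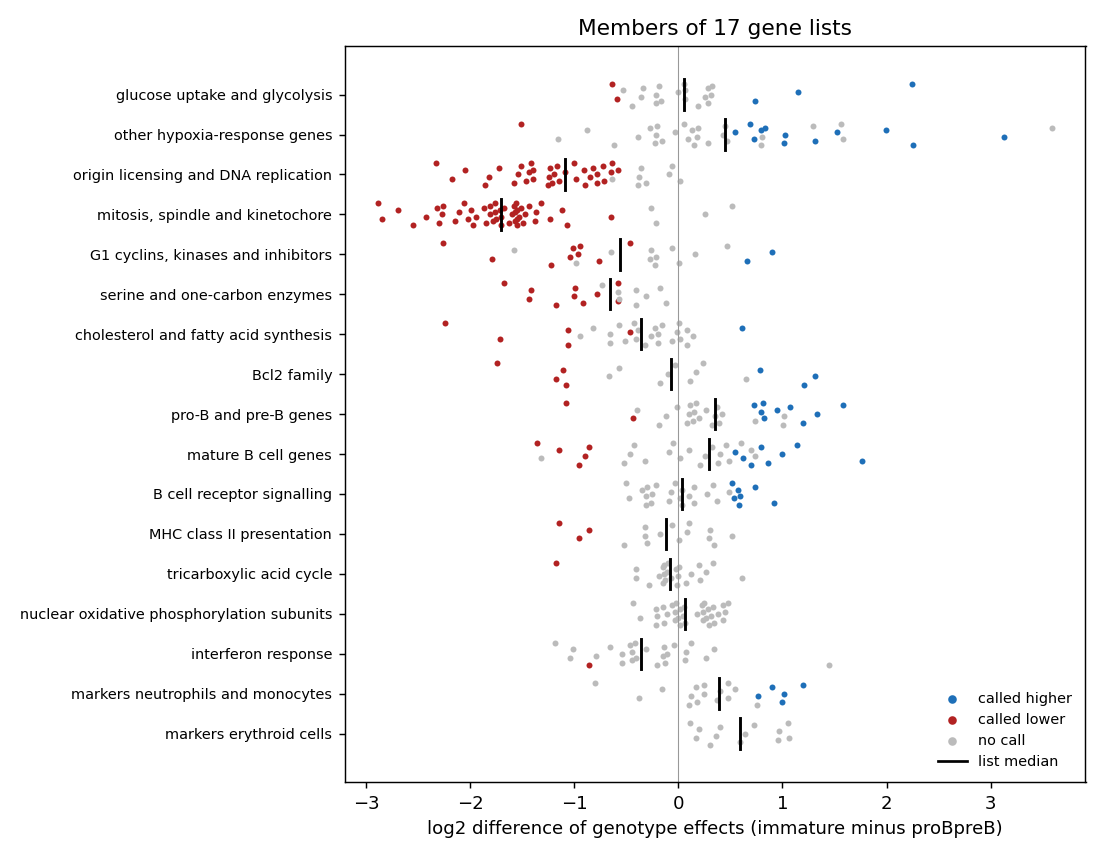
Log2 difference of genotype effects for the measured members of 17 gene lists, each point 1 gene coloured by its call and each bar the list median. The mitosis and replication lists lie almost wholly below 0, with medians of -1.70 and -1.09. The other lists have medians between -0.66 and 0.60.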

How the data were processed

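RNA was sequenced from sorted mouse bone marrow B cells. Cells were sorted into lysis buffer, and the library kit was SMARTer Universal Low Input RNA, per the labels' protocols. The submitters' processing notes list featureCounts, HISAT2, Trim Galore, FastQC, CASAVA, DESeq2 and mm10. Their versions and settings, the annotation and whether strand was used are not stated in the sources read. The authors deposited raw counts per gene symbol, and columns were assigned through the number at the start of each sample title. A deposited table of normalised values was not used.

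Counts of all 24 libraries were fitted with edgeR 4.0.16 under R 4.3.3 (filterByExpr over 6 groups, TMM, robust quasi-likelihood, 18 residual df), with Benjamini-Hochberg adjustment over 12850 genes and a threshold of 0.05. CPM are TMM-scaled. Members and gene lists were chosen with earlier results of these data known. Named genes are Vhl, the 12 largest differences in each direction whose mean log2 CPM reached 2 and whose symbol is no clone name, the 8 smallest p-values, up to 4 called members per list, 6 members per hypoxia list with the largest genotype effects, and 1 member of a list without calls; other list members were named after their values were seen. Some genes that this rule or the lists hold are not reported here. Lists are described by counts and medians, without a test. Replicates are separate mice. Between libraries of a group the chi-square per df was at least 5.82, so none was treated as a repeat. In proBpreB flox/WT it was 6.82 between replicates 1 and 2 and 13.6 between replicates 3 and 4. Across these pairs it was 23.4 to 31.2. Intervals are 95%; counts carry no molecular identifiers, so the limit of 3 counts covers counting error only.

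Both populations of a mouse share the animal by label. Deviations from group means of the same mouse correlated at r of -0.284 to 0.276 over 5000 genes, above 0.1 in 5 of 8 mice, and 5 immature libraries correlated best with their own mouse. In flox/flox r was 0.139 to 0.276, and each immature library correlated best with its own mouse. In flox/WT r was -0.284, 0.232, -0.250 and 0.011 in replicates 1 to 4, and only replicate 2 correlated best with its own mouse. Alternatives were RLE scaling, no filter, 10 CPM in 4 libraries, only the 16 libraries, the mouse as a block, DESeq2 1.42.0, limma-voom (limma 3.58.1) with the mouse as a random block, and leaving out each library. RefSeq promoters (GRCm38.p6) matched 9703 tested genes by symbol.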

Additional observations from a re-analysis of the deposited data

Results flagged for a closer look

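Among 29 genes (Vhl, the 24 with the largest differences and those with the smallest adjusted p-values), 116 groups of 4 libraries were searched for a single library apart from the other 3. 6 groups held 1, where chance gives about 1 in 20. These libraries were Vegfa in proBpreB flox/flox replicate 1 (104 CPM), Chd3os in proBpreB flox/WT replicate 3 (6.73 CPM), Mt1 in immature flox/WT replicate 1 (0.884 CPM) and Cdca3 in proBpreB flox/flox replicate 4 (166 CPM). Esco2 had 1 in immature flox/WT replicate 3 (57.2 CPM) and 1 in proBpreB flox/WT replicate 3 (138 CPM).

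A difference between the populations was the subject itself, tested for each gene as the difference of genotype effects in edgeR, and it was called higher for 606 and lower for 789 genes. Positive log2 differences were 3.12 for Vegfa, 3.12 for Smtnl2, 2.97 for Cox6a2, 2.31 for Gpr12, 2.26 for Plod2, 2.25 for Aldoc and 2.22 for Itga9. Klra1 stood at 2.18, Lrrn3 at 2.14, Thbd at 2.12, and Cmya5, a muscle-associated protein, at 2.06. Irs1, an insulin receptor substrate, stood at 2.21 with edgeR adjusted p = 0.0344, which rose to as much as 0.0824 and was lost without any 1 of 9 libraries.

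Negative log2 differences were -2.88 for Cenpf, -2.87 for Nfatc2, -2.85 for Mki67, -2.69 for Kif14, -2.64 for Chd3os, -2.58 for Pask and -2.55 for Cenpe. Alpl stood at -2.45, Ticrr at -2.44, Aspm at -2.43, Mt1 at -2.42 and Nid1 at -2.39. By smallest adjusted p the values were -1.86 for 2810417H13Rik, -2.06 for Esco2, -2.17 for Casc5 and -1.78 for Cdca3. Vhl itself stood at -1.34.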

How the results depend on the processing

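Over 23 alternatives the difference was called for 994 to 1694 genes, the direction of no called named gene reversed, and 85 of the 98 calls among genes chosen by the naming rule held in each. Without 1 library at a time the positive calls numbered 395 to 729, the negative 599 to 877, the immature genotype calls 2114 to 2789, the proBpreB calls 493 to 889, and the Vhl difference was -1.59 to -1.09. Without proBpreB flox/WT replicate 4 there were 395 positive and 493 proBpreB calls. The mouse as a replicate block gave 1559 calls, 1343 of them shared with the 1395. It removed the calls of Pmaip1, Hist1h1b and Cdkn1b (edgeR adjusted p = 0.0627, 0.0618 and 0.067), added Hbb-bs, Prdm1 and Nr4a1, and changed no other call of a gene named in the text. The 13 calls by the rule that were lost in at least 1 alternative were Irs1, Mlx, Pmaip1, Bbc3, Cxcr4, Pcx, Dnajb9, Herpud1, Bst2, Camp, Cd79a, Cd72 and Hist1h1b, and 3 uncalled genes, Ndufa1, Hbb-bs and Prdm1, gained a call in at least 1. Of the genes named after their values were seen, Mad2l1, Cdkn1b, Cxcr5, Hilpda, Plk1, Cdk6, Sox4, Cdk4, Cd93 and Scd1 lost theirs in 1 to 13 alternatives. Signs reversed for 3 uncalled hypoxia genes near 0 counts in controls: Mgarp (-2.55 to 0.00219 without 1 library, highest without immature flox/WT replicate 1), Ak4 (-1.10 to 0.0389, highest without immature flox/WT replicate 4) and P4ha2 (-0.58 with limma-voom); the cause was not tested. Depth limits genes near 0.253 to 0.382 CPM, where fold changes depend on the prior count.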

Other observations

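Immediate early and heat shock genes respond quickly to signalling, stress and handling of cells. Of 22 measured, 3 had a positive call, where 4.72% of all genes did, and 0 a negative one (median 0.21). With the mouse as a block 1 negative call was added, that of Nr4a1, a nuclear receptor (-1.09, edgeR adjusted p = 0.192, with the block 0.0211). Jund, an AP-1 subunit, was at 660.0, 650.2, 588 and 705 CPM and 691, 624, 459.6 and 595 CPM in immature flox/flox and flox/WT. In proBpreB cells Jund was at 199, 251, 198 and 210.1 CPM and 303, 377, 299.9 and 441 CPM. Only the proBpreB genotypes were separate, and the log2 difference was 0.86 (SE 0.21, edgeR adjusted p = 0.00678). Zfp36, which destabilises mRNA of immediate early genes, had the same form (0.79), while Dusp2, a phosphatase of MAP kinases (0.81), rose in immature cells.

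Of 19 unfolded protein and integrated stress response genes 2 had a positive call, Dnajb9 (0.73) and Herpud1 (0.56), and 0 a negative one. Over all genes 4.72% had a positive call and 10.9% a call in either direction. The list's positive calls numbered 0 to 2 when 1 library was left out. Pacsin1, an adaptor of endocytosis on the plasmacytoid dendritic cell list, was at 0.533, 1.81, 1.19 and 2.63 CPM in immature flox/flox and 4.29, 4.7, 4.04 and 5.55 CPM in immature flox/WT. In proBpreB cells Pacsin1 was at 18.8, 33.0, 27.6 and 22.9 CPM and 15.3, 18.3, 17.3 and 18.1 CPM. Flox/flox was lower in all immature libraries and higher in all proBpreB libraries, and the difference was -2.15 (SE 0.41, edgeR adjusted p = 0.000755).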
